A study of Mus musculus with 3 samples.

Results

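The Wnt pathway genes described here are a set of 9 genes that act at successive steps of the canonical pathway: the secreted inhibitors Dkk1 and Notum, the co-receptor Lrp6, the intracellular regulator Axin2, the DNA-binding effectors Tcf7, Lef1, Tcf7l1 and Tcf7l2, and the target transcription factor Sp5. The members were fixed by name, with earlier results of these data known. A probe set, a group of short probes designed for one transcript, was taken as a member when the array annotation assigned it to a single gene of the set. By that rule 8 of the 9 genes had a probe set, of 18193 genes that had one in all, and they had 16 probe sets between them. Tcf7 had none, so its expression is not analysed here.

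The cells were embryonic stem (ES) cells of the mouse, pluripotent cells derived from the early embryo. All of them carried a conditional knockout allele of Pou5f1, which encodes the pluripotency transcription factor Oct3/4. The question was how gene expression is affected once Oct3/4 is absent. RNA was measured on 1 Affymetrix array for each of 3 times of the knockout, day 0, day 1 and day 2. The strain, the clone, the culture medium and the way the knockout was induced were not given in the sources used here. Day 1 and day 2 had no parallel culture without the knockout, so the loss of Oct3/4 cannot be told apart from time in culture or an inducing treatment. With 1 array a day there are no replicates and no test, and every difference describes these 3 arrays.

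In the canonical pathway a Wnt ligand binds a Frizzled receptor and the co-receptor Lrp5 or Lrp6 at the cell surface. Without a ligand, a complex built on Axin and Apc marks beta-catenin for destruction. With a ligand that complex is held back, and beta-catenin enters the nucleus and binds TCF/LEF proteins at their target genes. In mouse ES cells Tcf7l1 acts mainly as a repressor of pluripotency genes, and stabilised beta-catenin, which relieves that repression, favours self-renewal. Many targets of the pathway, Axin2, Notum and Dkk1 among them, encode its own inhibitors.

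Values are MAS5 signals, which are linear array intensities. Differences are given in log2 after a constant of 55.9 was added to every signal. That constant is the 40th percentile of all signals, so a signal below it lies among the dim part of the array, and adding it makes the differences of dim genes smaller. Probe sets whose mean over the 3 arrays reached the constant were kept. This held for 12 of the 16 probe sets and for 7 of the 8 genes, the exception being Sp5. Where a gene had several kept probe sets, the one with the highest mean stood for it in the counts. The only error the arrays allow is the spread between kept probe sets of the same gene. Pooled over 5906 genes its SD was 0.30 at day 1 and 0.34 at day 2, both against day 0, and 0.30 between day 1 and day 2, and it leaves out the variation between cultures and arrays.

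The arrays shared a 2% trimmed mean of 498 before any scaling. The Pou5f1 signal, from 1 probe set, was 2400.3 on day 0, 40.8 on day 1 and 15.5 on day 2, in the direction of the day labels. Of 9 ES cell markers all 9 were at or above the constant at day 0, and all 9 were at least 2-fold lower at day 2. Their summed signal was 115900 on day 0, 69170.3 on day 1 and 23733.5 on day 2. The summed signal of 9 trophectoderm markers, the genes of the lineage that forms the placenta, was 10825.1, 16071.8 and 53986.8 on the same days, and 7 of the 8 kept ones were at least 2-fold higher at day 2. Fibroblasts are the usual feeder cells of ES cultures. Of 9 of their markers 5, such as Col1a1 and Col3a1, had mean signals under the constant, and the summed signal of the 9 was 780.9, 703.9 and 579.7. Thy1 made up 399.8, 274.6 and 89.3 of these sums and was lower by −1.65 at day 2 than at day 0. The other kept ones, Col1a2, Pdgfra and Pdgfrb, were at 0.26, 0.23 and 0.62 in that comparison. Of 5 kept primitive endoderm markers 2, Gata6 and Dab2, were at least 2-fold higher at day 2. The other kept ones of that lineage went both ways from day 0, with Gata4 at −0.43, Sox17 at −0.27 and Pdgfra at 0.23. Of 3 kept mesoderm and 3 kept neuroectoderm markers 0 reached 2-fold higher at day 2. Beside these counts, 5.25% of all 12717 genes measured were past 2-fold higher at day 2 against day 0. The summed mesoderm signal was 557, 1098.4 and 450.4 on the 3 days. Eomes, also listed for trophectoderm, gave 381.4, 844.1 and 295.4 of it. Of the neuroectoderm markers Neurod1 was lower by −1.32 at day 2 than at day 0. The results below run alongside these marker levels, whose part in them was not tested. In bulk RNA, fewer cells of a type and less RNA per cell cannot be told apart.

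At day 2 Dkk1 was the 1 member at least 2-fold higher than at day 0, Notum and Lef1 were at least 2-fold lower, and Axin2, Tcf7l2, Lrp6 and Tcf7l1 were within 2-fold. Over all 12717 genes measured, 5.25% were past 2-fold on the higher side and 5.65% on the lower side in that comparison. Lef1 was counted by a probe set that passed the filter only through its day 0 signal, its highest. At day 1 Notum alone of the 7 was past 2-fold, on the lower side, where 2.40% of all genes were past 2-fold higher and 2.59% past 2-fold lower. Between day 1 and day 2 Dkk1 alone was past 2-fold, on the higher side, where 2.09% of all genes were past 2-fold higher and 2.65% past 2-fold lower. The median of the 7 members at day 2 against day 0 was 0.27, beside 0.05 for all genes. That median is the value of 1 probe set of Lrp6, and the mean over the 2 kept probe sets of Lrp6 was −0.05. The median therefore depends on which probe set stands for Lrp6. With only 7 genes these counts are a description of the members.

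**Figure D1:**
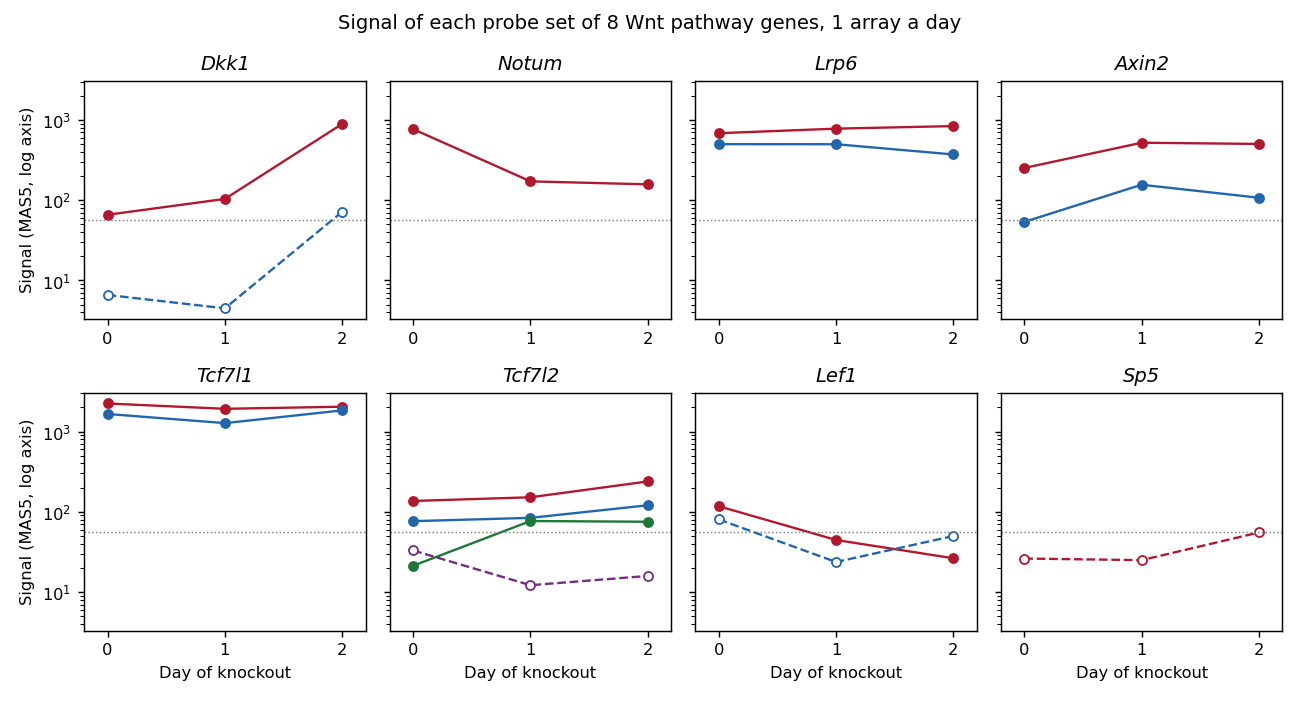
Signal of every probe set of the 8 genes at day 0, day 1 and day 2 on a log axis, 1 point for each array; filled points and solid lines are probe sets kept by the filter, open points and dashed lines are those below it, and the dotted line is the constant of 55.9. Dkk1 climbs between day 1 and day 2, Notum drops between day 0 and day 1, and both probe sets of Axin2 are higher at day 1 than at day 0.

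Dkk1, a secreted protein that binds Lrp5 and Lrp6 and blocks Wnt signalling at the receptor, had the largest difference of the members. Its probe set 1420360_at had a signal of 65.8 on day 0, 103.7 on day 1 and 892.8 on day 2. The first of these lay just above the constant, and day 2 stood far above both earlier days. At day 2 it was higher than at day 0 by 2.96 in log2, which is 7.80-fold after the constant was added. Only 11 of the 12717 genes had a larger difference in that comparison. Most of the difference came after day 1: day 1 was higher than day 0 by 0.39, and day 2 was higher than day 1 by 2.57. A difference of 0.39 is close to the pooled SD between probe sets of 0.30. The other probe set of Dkk1, 1458232_at, was below the filter, with signals of 6.6 on day 0, 4.5 on day 1 and 72 on day 2. It crossed the constant at day 2 only, and its difference of 1.03 at day 2 against day 0 has the same direction as that of the first and is limited by the constant. In all 8 processing alternatives tried Dkk1 was past 2-fold at day 2 against day 0.

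Notum, a secreted enzyme that inactivates Wnt ligands by removing their lipid group, went the other way and earlier. Its single probe set, 1451857_a_at, had a signal of 767 on day 0, 171.5 on day 1 and 157.4 on day 2. Both later days lay well below day 0 and close to each other. It was lower at day 1 than at day 0 by −1.86 in log2, or 3.62-fold, and lower at day 2 than at day 0 by −1.95, or 3.86-fold. At day 1 only 66 of the 12717 genes had a lower difference, and at day 2 there were 175. Day 2 differed from day 1 by −0.09, less than the pooled SD of 0.30. The suffix of the probe set marks probes shared by transcripts of one gene. It is the only one for Notum, so Notum has no value when probe sets of that kind are left out.

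The 2 secreted inhibitors thus differed in direction and in timing: Notum was 3.62-fold lower by day 1 and Dkk1 was 5.94-fold higher at day 2 than at day 1.

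**Figure D2:**
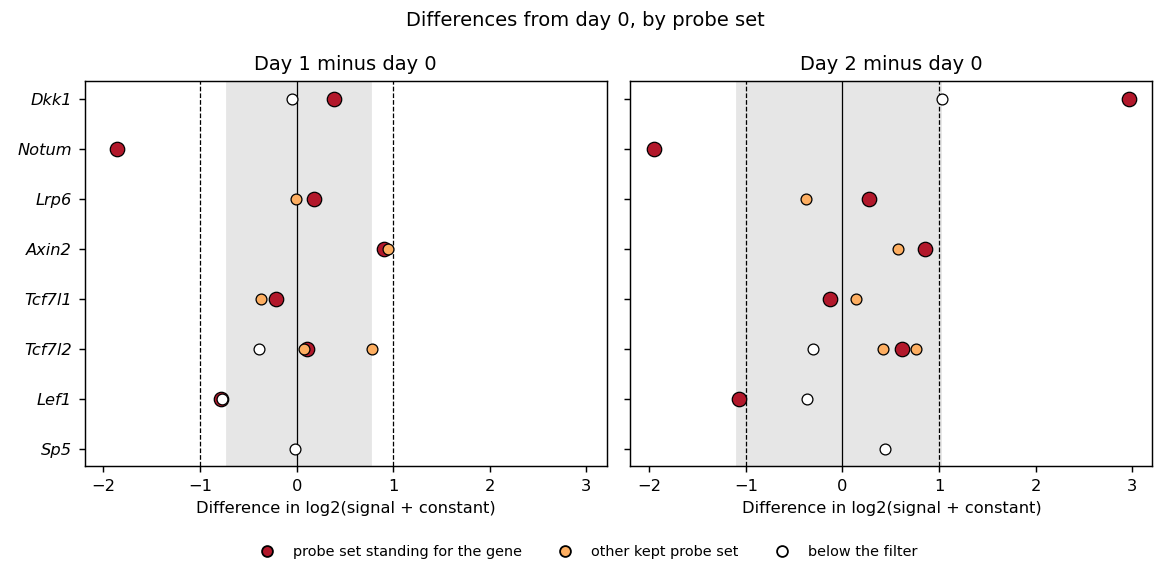
Difference in log2(signal + constant) from day 0 for every probe set of the 8 genes, at day 1 on the left and at day 2 on the right; the grey band holds the middle 90% of all 12717 genes, and the dashed lines mark 2-fold. At day 2 the probe sets that stand for Dkk1 and Notum lie outside the band, which runs from −1.09 to 1.02, and those of the other 5 measured genes lie inside it.

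Lrp6, the co-receptor that Dkk1 binds, stayed near its day 0 level. Probe set 1428500_at had signals of 682.2 on day 0, 777.5 on day 1 and 836.7 on day 2, and 1451022_at had 498, 497.4 and 370.9 on the same days. The first was highest at day 2 and the second lowest at day 2. At day 2 against day 0 they gave 0.27 and −0.38. Their mean was −0.05 ± 0.46 (SD, n = 2 probe sets), so the arrays do not settle a direction for Lrp6. The related co-receptor gene Lrp5 had signals of 35.6, 137 and 75.5 on the 3 days and was higher by 1.08 at day 1 than at day 0, by 0.76 with a doubled constant and by 0.996 after quantile normalisation.

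Axin2, a scaffold of the beta-catenin destruction complex and a widely used readout of the pathway, was higher on both days after day 0, by slightly less than 2-fold. Probe set 1436845_at had signals of 251.7 on day 0, 519.2 on day 1 and 501.6 on day 2. Probe set 1421341_at had signals of 53.6, 155.7 and 107.2 on the same days. In both probe sets the day 1 and day 2 signals lay above the day 0 signal, and day 1 was the highest. Day 1 was higher than day 0 by 0.90 in log2, or 1.87-fold, in the first and by 0.95 in the second. The mean over both was 0.93 ± 0.03 (SD, n = 2 probe sets). At day 2 against day 0 the values were 0.86 and 0.57, with a mean of 0.72 ± 0.20 (SD, n = 2 probe sets). Of all genes, 402 had a larger difference at day 1 and 938 had a larger one at day 2. Over the 8 processing alternatives the difference of Axin2 ranged from 0.79 to 1.00 at day 1 and from 0.72 to 0.95 at day 2, each time above 0. The related gene Axin1, which encodes the other Axin scaffold, was at 0.35 at day 2 against day 0.

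The TCF/LEF genes encode DNA-binding proteins that share an HMG box and bind beta-catenin. The 3 genes of this family with a probe set did not move together. Tcf7l1 changed little, Tcf7l2 was modestly higher at day 2 in its kept probe sets, and Lef1 was lower on both days.

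Tcf7l1, the family's main repressor in ES cells, had signals of 2232.6 on day 0, 1917.4 on day 1 and 2036.4 on day 2 by probe set 1450117_at. Probe set 1436207_at gave 1652.5, 1272.1 and 1832.2. Both were lowest at day 1. Day 1 was lower than day 0 by −0.21 and −0.36 in log2, with a mean of −0.29 ± 0.11 (SD, n = 2 probe sets), and 0.30 is the pooled SD between probe sets. At day 2 against day 0 the probe sets gave −0.13 and 0.14, with a mean of 0.01 ± 0.19 (SD, n = 2 probe sets). The sign at day 2 therefore depends on the probe set. While the Pou5f1 signal was lower by −5.10 in log2 at day 2 than at day 0, the Tcf7l1 signal was within 1.11-fold of day 0 in both probe sets.

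Tcf7l2 had 4 probe sets, 3 of them kept. Probe set 1429428_at had signals of 136.5 on day 0, 151.7 on day 1 and 238.9 on day 2. Probe set 1429427_s_at had signals of 76.5, 84.1 and 120.6, and 1426639_a_at had signals of 21.3, 76.8 and 75.2. In each of these 3 the day 2 signal lay above the day 0 signal. They gave 0.62, 0.41 and 0.76 in log2 at day 2 against day 0, with a mean of 0.60 ± 0.18 (SD, n = 3 probe sets). At day 1 against day 0 they were further apart, at 0.11, 0.08 and 0.78, with a mean of 0.32 ± 0.40 (SD, n = 3 probe sets). The day 0 signal of 1426639_a_at was below the constant, and its mean over the 3 arrays, 57.8, passed the filter only through its later days. The last probe set, 1425229_a_at, was below the constant on all 3 days, with signals of 33, 12.2 and 15.9. It gave −0.31 at day 2 against day 0, the other direction.

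Lef1, an activating member of the family and itself a Wnt target, was dim. Probe set 1454734_at had signals of 117.4 on day 0, 44.6 on day 1 and 26.4 on day 2. Probe set 1421299_a_at, below the filter, had signals of 80.4, 23.7 and 50. In both, the day 0 signal was the highest and alone above the constant. At day 1 against day 0 the probe sets gave −0.79 and −0.78 in log2. At day 2 against day 0 they gave −1.07 and −0.36, so the 2-fold mark was passed by the first alone. With a doubled constant the first gave −0.73, and with a constant of 16 it gave −1.65. The order of day 1 and day 2 is unresolved, since both lay below the constant.

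Sp5, a zinc-finger transcription factor and a direct Wnt target, had mean signal below the constant and takes no part in the counts. Its probe set 1422914_at had signals of 26.2 on day 0, 25 on day 1 and 55.3 on day 2. All 3 were below the constant, the last by little. The difference at day 2 against day 0 was 0.44 in log2, among signals where the order of days is not resolved.

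The promoters of Dkk1, Axin2 and Sp5 are shown because these genes are commonly used as Wnt targets and they differ in whether the letters bound by TCF/LEF proteins occur next to the start. The RefSeq promoter table (GRCm38.p6) held 7 of the 9 genes. Each sequence gives the 250 bases before the transcript start on the strand of the gene. Capitals mark the TCF/LEF core CTTTGA on either strand, which reads TCAAAG when it lies on the other strand.
Dkk1, chr19:30549497-30549746, minus strand: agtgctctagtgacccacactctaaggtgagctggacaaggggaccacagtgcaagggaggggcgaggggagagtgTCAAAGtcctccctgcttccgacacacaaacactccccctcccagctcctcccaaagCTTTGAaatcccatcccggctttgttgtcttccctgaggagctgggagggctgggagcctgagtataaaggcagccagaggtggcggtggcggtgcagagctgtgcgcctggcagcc
Axin2, chr11:108920099-108920348, plus strand: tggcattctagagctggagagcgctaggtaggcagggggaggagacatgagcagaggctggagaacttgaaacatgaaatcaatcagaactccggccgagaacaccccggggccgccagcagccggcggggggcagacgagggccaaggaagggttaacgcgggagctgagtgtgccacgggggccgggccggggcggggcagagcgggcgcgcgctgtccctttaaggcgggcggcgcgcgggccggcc
Sp5, chr2:70474673-70474922, plus strand: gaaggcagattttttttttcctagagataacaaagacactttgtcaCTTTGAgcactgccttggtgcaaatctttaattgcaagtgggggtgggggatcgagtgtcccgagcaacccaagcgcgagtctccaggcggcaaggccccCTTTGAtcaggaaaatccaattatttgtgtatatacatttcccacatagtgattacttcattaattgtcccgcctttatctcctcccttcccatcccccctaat
The Dkk1 sequence held 2 matches, which began 174 and 117 bases before the start. The Sp5 sequence also held 2, which began 204 and 104 bases before the start, and the nearer is part of the longer form CTTTGATC. The Axin2 sequence held 0. Of 32851 promoter entries of this length 13.8% held CTTTGA on at least 1 strand and 0.801% held CTTTGATC. Lef1 has 4 start sites in the table, and 1 of them had matches, 2 in number. The entries of Tcf7, Tcf7l1 and Tcf7l2 held 0. The octamer ATGCAAAT, the letters bound by Oct3/4 and other POU factors, was in 0 of the members' 12 entries and in 1.6% of all entries. A match describes letters only, and the absence of one says nothing about binding elsewhere.

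Genes with time courses most like those of the 3 members past 2-fold at day 2 were found by the Euclidean distance over 2 values, the differences of day 1 and of day 2 from day 0, among 12716 other genes and over 3 arrays. Nearest to Dkk1 was Krt8, a keratin of simple epithelia, at a distance of 0.13, with signals of 2473.5 on day 0, 3474.6 on day 1 and 18359.4 on day 2. Mbnl3 (0.23) and Nxf7 (0.25) followed. In log2, Krt8 was higher than on day 0 by 0.48 at day 1 and by 2.86 at day 2, beside 0.39 and 2.96 for Dkk1. Nearest to Notum was Klf5, a transcription factor of ES cells, at 0.09, with signals of 9534.7, 2434.8 and 2471.1, followed by Nupr1 (0.13) and Tmem125 (0.15). Nearest to Lef1 were Dipk2a (0.04), Atf7ip (0.05) and Rbm43 (0.05). In a range where many genes lie close together, as around Lef1, a small distance sets few genes apart. The differences were taken after the constant was added, so genes alike in them can differ in raw signal. Tmem125 had signals of 241, 18.9 and 24.7 on the 3 days, beside 767, 171.5 and 157.4 for Notum.

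**Figure D3:**
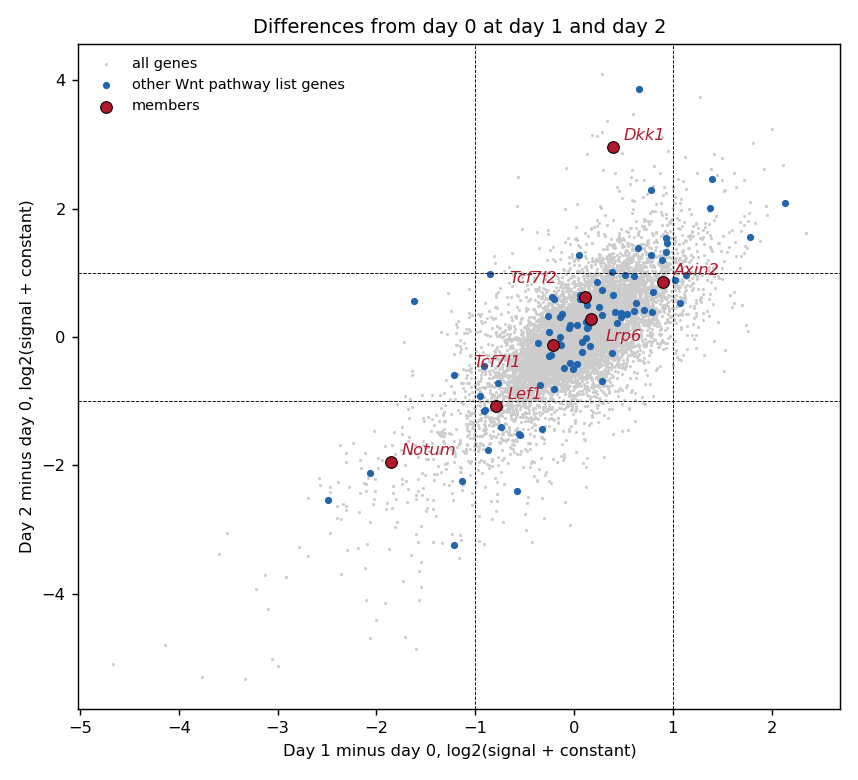
Difference of day 1 from day 0 (horizontal) against difference of day 2 from day 0 (vertical), both in log2(signal + constant), for all 12717 genes (grey), other genes of the Wnt pathway list (blue) and the 7 measured members (red); dashed lines mark 2-fold. Both axes share the day 0 array. Dkk1 lies above the main cloud at a small day 1 difference, and Notum lies low on both axes.

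The members were set beside a wider list of Wnt pathway genes, in which 94 of 132 listed genes were measured, 87 of them apart from the members. Of those 87, 14 (16.1%) were past 2-fold higher and 12 (13.8%) past 2-fold lower at day 2 against day 0, where all genes gave 5.25% and 5.65%. Their median was 0.29, beside 0.05 for all genes. At day 1 against day 0, 7 (8.05%) were higher and 6 (6.90%) lower, beside 2.40% and 2.59% of all genes. At day 2 against day 1, 6 (6.90%) were higher and 4 of 87 lower, beside 2.09% and 2.65%. The counts by role below rest on few genes each and are read against the same shares of all genes. Some genes of this list stand in 2 roles. The list was chosen with earlier results of these data known, so its shares are not independent of those results.

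Among secreted or membrane inhibitors, the role that Dkk1 and Notum share, 4 of 10 measured genes were at least 2-fold higher at day 2 and 1, Notum, was at least 2-fold lower, beside 5.25% and 5.65% of all genes. The others higher were Frzb (1.56, signals 14.1, 184.3 and 149.9 on the 3 days), a secreted Wnt-binding protein, Dkk3 (1.28) and Kremen1 (1.00), a receptor for Dkk1. The calls of Dkk3 and Kremen1 did not hold throughout. Dkk3 was at 0.97 with a doubled constant and at 0.96 as the mean over its kept probe sets. Kremen1 was at 0.86 with a doubled constant, 0.92 with equal ribosomal protein medians, 0.98 after quantile normalisation and 0.63 as the mean over its kept probe sets. Frzb was already higher by 1.78 at day 1, whereas Dkk1 was higher by 0.39 then. Sfrp1, a secreted Frizzled-related inhibitor, was at −0.95 at day 1 and −0.92 at day 2 by the probe set that stands for it. Its 5 kept probe sets ranged from −2.09 to −0.87 at day 1, with a mean of −1.496, past 2-fold lower. At day 2 they ranged from −1.27 to −0.23, with a mean of −0.89.

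Among receptors and co-receptors, the role of Lrp6, 0 of 14 were at least 2-fold higher at day 2, where 5.25% of all genes were, and 3 Frizzled genes were lower, where 5.65% were. Fzd5 had signals of 1276.3 on day 0, 262.2 on day 1 and 250.5 on day 2 and was lower by −2.12, a course close to that of Notum. Fzd4 was at −1.52 (signals 137.4, 76.7 and 11.4, the last below the constant) and has no value with a filter at the 60th percentile. Fzd10 was at −1.14, or at −0.93 with a doubled constant. Fzd7 was at −0.29 and Ryk, a receptor tyrosine kinase-like protein with the highest mean signal of the role, at 0.86. The 3 kept probe sets of Ryk ranged from −0.03 to 0.86, with a mean of 0.45. Ror2, a receptor for Wnt5a, was at 1.02 at day 1 and 0.88 at day 2, and its day 1 value ranged from 0.86 to 0.99 in the 4 of 8 alternatives that put it within 2-fold. Of the R-spondin system, which raises the level of Wnt receptors, Lgr4 was lower by −1.16 and the other 3 measured genes were within 2-fold.

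By the probe sets that stand for them, 0 of 10 measured Wnt ligand genes were past 2-fold at day 2 against day 0, where all genes gave 5.25% higher and 5.65% lower, and 9 more were below the filter. Wnt7b, with the highest mean signal, was at 0.71, and its other kept probe set gave 1.16. Wnt4 was at 0.59, but its other kept probe set gave 1.61 and the mean over both, 1.10, was past 2-fold. Wnt3a was lower by −1.22 at day 1 (signals 110.2, 15.4 and 54.5), or by −0.80 with a doubled constant. Wnt9a, with signals of 79.8, 19.5 and 210.6, was below the constant at day 1 and higher by 1.82 at day 2 than at day 1. The genes that process and export the ligands differed from each other: Porcn, which adds their lipid, was lower by −1.76 (signals 644.5, 326.4 and 150.3), and Wls, which carries them to the cell surface, was higher by 1.39. The 3 kept probe sets of Wls ranged from 0.25 to 1.39, with a mean of 0.97.

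Among 21 measured cytoplasmic regulators, the role of Axin2, 2 were at least 2-fold higher at day 2 and 0 were lower, which is 9.52% and 0% of its genes beside 5.25% and 5.65% of all genes. These were Apc2 (2.00, signals 44.5, 204.3 and 346.9), a relative of Apc, and Dact1 (1.33), which binds Dishevelled. Nkd1, another Dishevelled-binding inhibitor and Wnt target, was higher by 1.13 at day 1, but its 4 kept probe sets ranged from −0.26 to 1.13, with a mean of 0.52. Ctnnb1, the gene of beta-catenin, had signals of 20414.8, 23361.8 and 24930.4 and was at 0.29 at day 2. Of the enzymes and scaffold partners of the destruction complex, Csnk1a1 was at −0.01 and Gsk3a at 0.21. Gsk3b was at 0.95 (signals 598.2, 939.8 and 1212.1), just under 2-fold, and its 6 kept probe sets ranged from −0.42 to 0.95. Apc was at 0.08, and its 4 kept probe sets ranged from −0.50 to 0.77.

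Among 16 measured nuclear effectors and co-factors, the role of the TCF/LEF genes, 4 were at least 2-fold lower at day 2 and 1 was higher, beside 5.65% lower and 5.25% higher over all genes. One of the lower genes, Lef1, passed the filter only through its day 0 signal. Besides Lef1 the lower ones were Ctbp2 (−2.24, signals 10659.1, 4829.1 and 2205.5), a transcriptional co-repressor, Tle4 (−1.51), a Groucho-family partner of TCF proteins, and Tle5 (−1.41), a short protein of the same family. The kept probe sets of Tle4 ranged from −1.51 to −0.51. Other Groucho genes were within 2-fold, with Tle1 at −0.13 and Tle3 at 0.32. Hipk2, a kinase, was at 1.21, and its 6 kept probe sets ranged from −0.66 to 1.93, with a mean of 0.75.

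Genes known as Wnt targets in one tissue or another went in both directions. Of 23 measured, 8 were past 2-fold on the higher side and 6 on the lower side at day 2 against day 0, which is 34.8% and 26.1% beside 5.25% and 5.65% of all genes. These shares too come from a list chosen with earlier results of these data known. Besides Dkk1, the higher ones were Ascl2 (3.86), Msx2 (2.46), Jun (2.28), Cdx2 (2.09), Cd44 (1.54), Id2 (1.46) and Ppard (1.28), and several of them, such as the trophoblast regulators Ascl2 and Cdx2, answer to other pathways as well. The 2 kept probe sets of Msx2 gave 0.50 and 2.46, with a mean of 1.48. Id2 was at 0.36 without probe sets whose suffix is _x_at, _s_at or _a_at. Cd44 had signals of 13.1, 75.5 and 144.9, so it was below the constant at day 0 and passed the filter only through its later days. It has no value with a filter at the 60th percentile. Besides Notum and Lef1, the lower ones were Bmp4 (−3.25), Gbx2 (−2.54), Ccnd1 (−2.40), the gene of cyclin D1, and Nr4a1 (−1.44). Of these lower targets, Lef1 passed the filter only through its day 0 signal. Ascl2, with signals of 229, 393.5 and 4080.9, shares with Dkk1 a small day 1 difference (0.66) and a large one after day 1 (3.20), and Gbx2, with 408.6, 26.5 and 23.8, shares with Notum a day 1 difference that makes up nearly all of its course. Myc was lower by −1.62 at day 1 and higher by 2.18 at day 2 than at day 1. Tbx3, with the highest mean signal of the targets, was at −0.08.

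**Figure D4:**
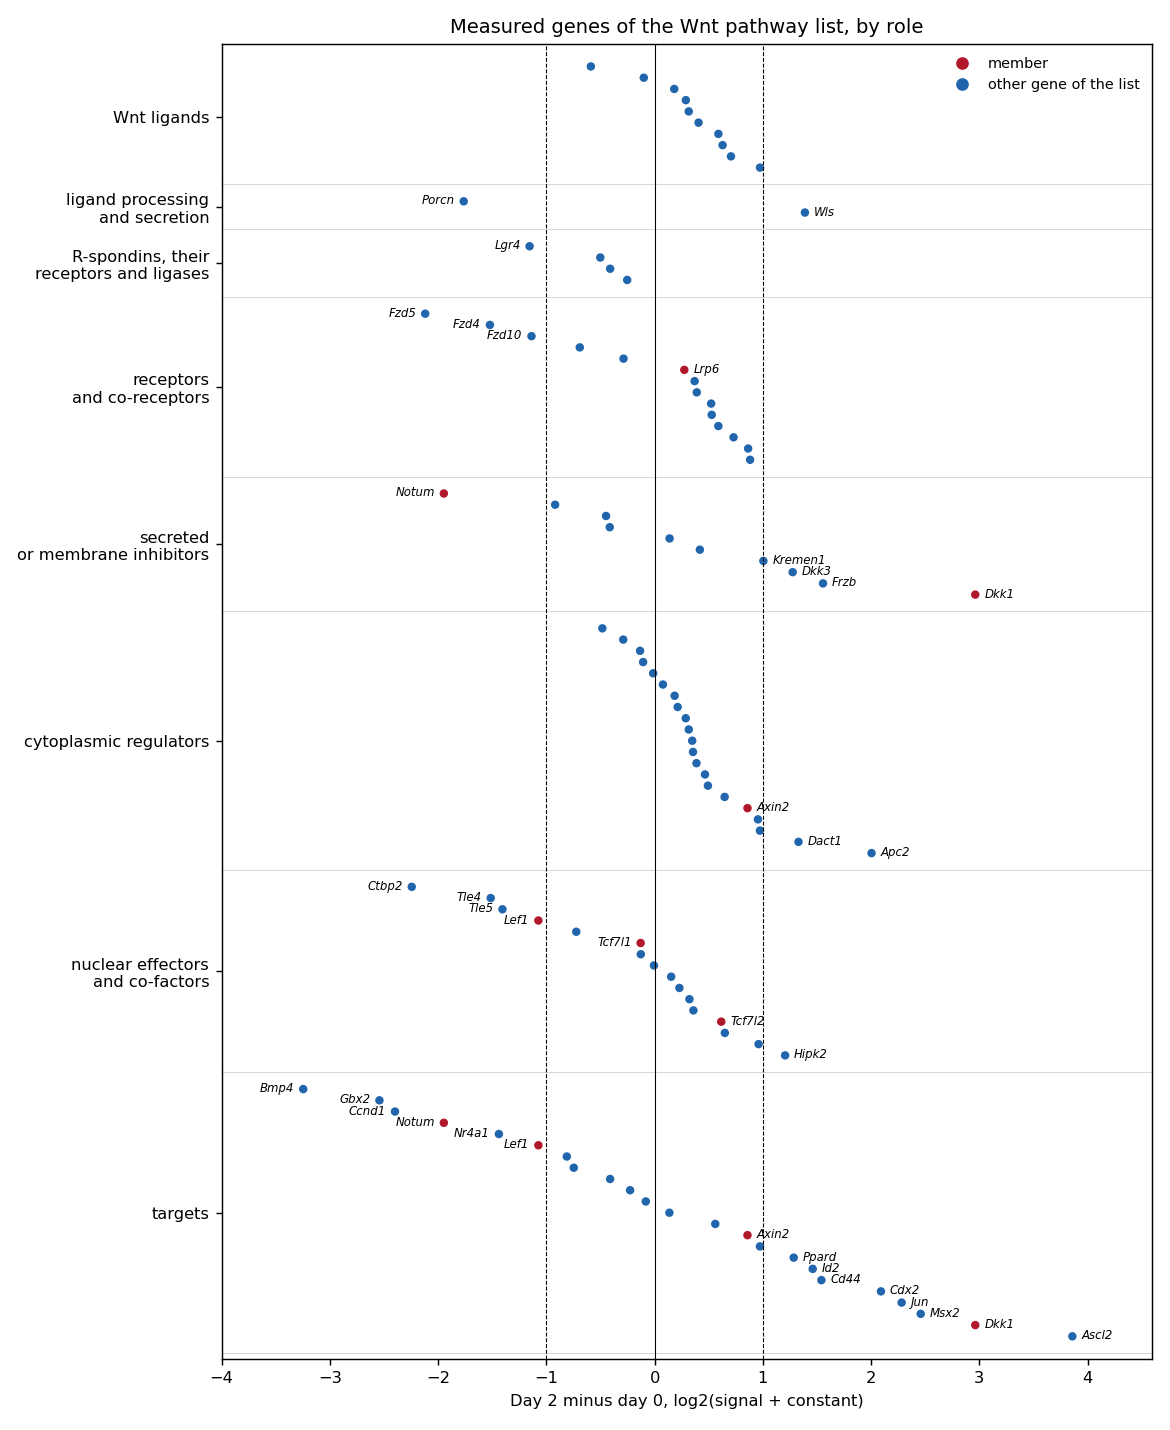
Difference in log2(signal + constant) at day 2 against day 0 for the measured genes of the Wnt pathway list, 1 point for each gene and role, with the members in red and genes past the dashed 2-fold lines named. Among the inhibitors Dkk1 lies furthest right and Notum furthest left, cytoplasmic regulators lie mostly within 2-fold, and targets spread from −3.25 to 3.86.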

How the data were processed

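Total RNA of 1 culture for each day was labelled with biotin and hybridised to Affymetrix arrays, per the labels. The deposited values are linear intensities, which the authors made with MAS5 per the submitters' processing notes; no version was found in the sources used here. The day 2 column holds 64 control probe sets more than the others, which were left out, and 45037 remained. No source used here says whether that array was processed apart.

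Arrays were scaled to a common 2% trimmed mean, and log2(intensity + 55.9) was computed from the deposited values. Of 45037 probe sets, 26925 (59.8%) reached the constant on average. The platform annotation names 1 gene for 34945 probe sets, several for 932 and none for 9160; 34741 matched RefSeq (GRCm38.p6) by Entrez identifier and 0 symbols changed. Python 3.11.15, numpy 2.4.6 and pandas 2.3.3 were used. The code of the size rule was run on simulated data, with changes far larger than 2-fold planted in bright probe sets only. That run says nothing about dim genes or differences near 2-fold. The members and lists were chosen with earlier results of these data known. Named genes are Pou5f1, the members, list genes past 2-fold in any comparison, the one with the highest mean signal in each role, 3 neighbours of each member past 2-fold at day 2, and relatives of these, chosen after their values were seen. The number of arrays limits the precision.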

Additional observations from a re-analysis of the deposited data

How the results depend on the processing

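No paired analysis was possible because each day has 1 array. The alternatives were a constant of 16 or of 112, no filter or one at the 60th percentile of all signals (151), scaling of the arrays to equal ribosomal protein medians or by quantiles, the mean over a gene's kept probe sets, and leaving out the probe sets with the suffix _x_at, _s_at or _a_at. Equal ribosomal protein medians moved the median of all genes by −0.12 at day 1 against day 0. Dkk1 at day 2 kept its direction and stayed past 2-fold in all 8 of them, from 2.50 to 3.47. Notum kept both in the 7 that gave it a value, from −2.06 to −1.63 at day 1 and from −2.18 to −1.71 at day 2. Tcf7l1 (0.01) and Lrp6 (−0.05) changed sign at day 2 with the mean over probe sets, as did Lrp6 at day 2 against day 1 (−0.14). Members at least 2-fold lower at day 1 numbered 2 with a constant of 16, Lef1 (−1.14) joining Notum, and 0 without the suffixed probe sets, where Notum has no value. Members at least 2-fold lower at day 2 numbered 1 in place of 2 with a constant of 112, with the stricter filter, which removes Lef1, and without the suffixed probe sets, which removes Notum. In the Wnt pathway list 7 genes were higher at day 1 against day 0; the count was 12 with a constant of 16, and 4 with a constant of 112, with the stricter filter or with the mean over probe sets. The 7 lower ones were 12 with a constant of 16 and 11 with equal ribosomal protein medians, which gave 6 higher. The 4 lower at day 2 against day 1 were 7 with a constant of 16. Over all genes, the 305 higher at day 1 were 575 with a constant of 16, 146 with 112, 202 with the stricter filter and 202 with equal ribosomal protein medians, which gave 438 lower in place of 330. At day 2 against day 1 the 266 higher and 337 lower were 437 and 602 with a constant of 16, and 157 and 184 with 112. The cause of these shifts with the scaling was not tested; a larger constant shrinks differences by construction. Signals near the constant, as for Lef1 and Sp5, limit what the arrays resolve.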
